A study of Mus musculus with 375 samples.

Results

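Genes of intestinal lipid uptake and lipoprotein assembly were followed in single cells of the mouse small intestine that had been sorted as Lgr5-positive; Lgr5 marks the stem cells at the base of the crypts. The members were 10 genes taken by name, Scarb1, Cd36, Npc1l1, Dgat1, Dgat2, Mgll, Mttp, Apob, Apoa1 and Apoa4, and all 10 were found among the 23420 genes of the deposited table. The mice had been fed a high-fat diet (HFD) or a control diet, and cells were collected by flow cytometry and their RNA was read by Smart-seq2, which copies whole transcripts from each cell in its own well. The cell titles name 4 sets, HFD 1, HFD 2, control 1 and control 2, with 93, 94, 94 and 94 cells. Strain, age, time on the diets, the composition of the diets and the reagent that marked Lgr5 are not stated in the labels used here, nor whether the sets were separate mice. P-values therefore measure only the spread between these 4 sets, which may be technical.

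After absorption of dietary fat, an enterocyte takes up fatty acids, monoacylglycerol and cholesterol, joins them again into triglyceride and cholesteryl ester in the endoplasmic reticulum, and packs the lipid around apolipoprotein B into chylomicrons that leave through the lymph. The pathway belongs chiefly to absorptive cells of the villus, while stem cells of the crypt base divide and renew them. The genes are described below in the order of the path, uptake first, then triglyceride synthesis and breakdown, then assembly of the particle.

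Levels are TPM, transcript abundances that are scaled for gene length and sum to the same total in each cell, so genes can be compared with each other but no read depth is kept. Cells with at least 2000 genes above TPM 0 were used, which left 91, 92, 93 and 91 cells in HFD 1, HFD 2, control 1 and control 2, 367 of 375 in all. The median number of genes per cell was 6857 and 6348.5 in the HFD sets and 6895 and 6130 in the control sets. Rn45s, a precursor of ribosomal RNA, made up 26.9% and 18.6% of TPM in the HFD sets and 39.1% and 24.6% in the control sets. Its part in the results was examined only by leaving it out of the totals. Lgr5 averaged 136 and 133 TPM in the HFD sets against 165 and 119 TPM in the control sets, and 10 of 10 stem cell markers were at 1 TPM or more in every set. Summed markers of stromal and endothelial cells were at or under 0.253 TPM in each set, those of leukocytes at or under 2.97 TPM, and of the 3 adipocyte markers Adipoq and Plin1 were at 0 and Plin4 was at 2.52 and 3.57 TPM in the HFD sets and 3.50 and 2.19 TPM in the control sets. Of 15 enterocyte markers outside the members, which summed to 496 and 536 TPM in the HFD sets and 470 and 465 TPM in the control sets, Alpi was between 0.250 and 1.47 TPM and Lct at or under 0.480 TPM in each set. Other brush border enzymes of the list were higher: Anpep was at 28.2 and 12.2 TPM in the HFD sets and 37.5 and 26.2 TPM in the control sets, and Mep1a at 14.7 and 9.90 TPM against 20.4 and 21.2 TPM.

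Promoter sequences of Mgll, a gene of lipid breakdown, and Apob, the structural gene of the chylomicron, are shown here because Mgll and Scarb1 had the largest fold changes of the members and Apob was held by the most cells. Of the 10 members, 7 were matched in the RefSeq promoter table (build GRCm38.p6), with 8 windows of 250 bases before a start, and Scarb1, Dgat1 and Dgat2 were not matched. The windows were searched on both strands for 2 motifs that do not overlap in letters: TATAAA, the core of a TATA box, found in 12.4% of 32851 windows of that length, and TCACNCCAC, a sterol regulatory element, found in 1.05%. The only match in a member's window was TATAAA, in capitals below, on the coding strand of Apob. It lay 31 to 26 bases before the start of the gene in GENCODE M21. The Mgll window (chr6:88724162-88724411, plus strand, 68% G and C) held neither, and the Apob window (plus strand, 55.2% G and C) is printed without the last 29 bases, which GENCODE places inside the gene, as chr12:7977427-7977647.
Mgll: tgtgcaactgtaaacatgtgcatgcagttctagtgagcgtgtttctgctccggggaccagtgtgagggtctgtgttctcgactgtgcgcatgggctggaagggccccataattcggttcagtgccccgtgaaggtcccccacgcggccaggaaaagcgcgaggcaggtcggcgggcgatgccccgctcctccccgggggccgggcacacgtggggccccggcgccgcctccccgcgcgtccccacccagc
Apob: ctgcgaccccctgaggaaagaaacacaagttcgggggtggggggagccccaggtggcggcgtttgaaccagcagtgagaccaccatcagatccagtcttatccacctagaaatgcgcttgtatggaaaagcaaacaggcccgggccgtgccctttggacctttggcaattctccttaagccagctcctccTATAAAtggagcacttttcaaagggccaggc
A match is a description of the letters and not evidence of a bound site.

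In control crypt cells Dgat1 was the most abundant of the 10 genes, Apob and Mttp came next, and Cd36 was close to absent. In HFD cells the order at the top was the same apart from Mttp and Apob, whose sets overlapped, and Scarb1 stood at rank 4 of 10 by mean level, against rank 6 in control cells. Below it in HFD cells, Npc1l1, Mgll and Dgat2 each overlapped the next gene in the order, which for Dgat2 was Apoa4, while Apoa4 lay above Apoa1 and Apoa1 above Cd36. In control cells Scarb1, Apoa4, Apoa1 and Mgll each overlapped the next gene, down to Cd36 at the lowest rank. The summed level of the 10 genes was 182 and 207 TPM in the HFD sets and 172 and 194 TPM in the control sets, so the sums overlapped. Scarb1 was higher on HFD and passed the test across all genes, in which 0.369% of 11667 genes were called higher. The other 8 tested members did not pass it, and Cd36 was under the filter of a mean of 1 TPM and was not tested.

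**Figure D1:**
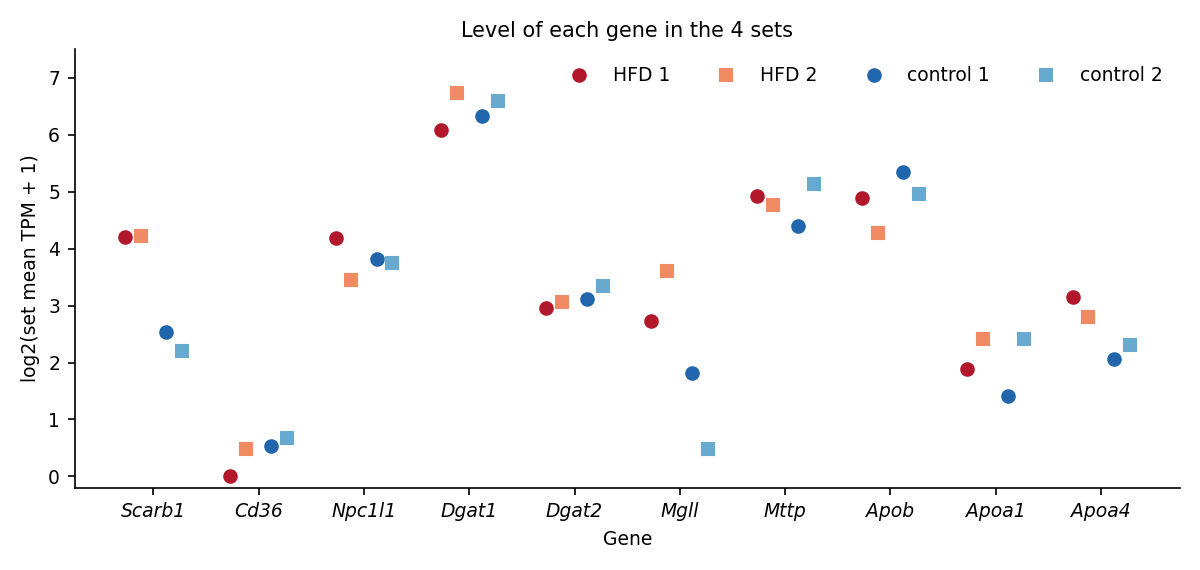
Mean level of the 10 genes in each set as log2(mean TPM + 1), ordered from uptake through triglyceride metabolism to particle assembly; each point is 1 set of 91 to 93 cells. The HFD points of Scarb1 lie above its control points and close to each other, at 17.4 and 17.7 TPM against 4.81 and 3.58 TPM, while those of Dgat1, Mttp, Npc1l1 and Apoa1 interleave with the control points.

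Scarb1 encodes scavenger receptor class B type 1, a receptor for high-density lipoprotein that also sits in the brush border and moves cholesterol and other lipids into the cell (GRCm38 chr5:125277087-125341094, minus strand). Its mean level was 17.4 and 17.7 TPM in HFD 1 and HFD 2 against 4.81 and 3.58 TPM in control 1 and control 2. The HFD sets were nearly equal and lay above both control sets. Scarb1 averaged 17.5 ± 0.217 TPM in HFD cells and 4.20 ± 0.870 TPM in control cells (SD, n = 2 sets each). On the log2(mean TPM + 1) scale the difference was 1.84 (SE 0.34, 95% interval 1.14 to 2.54), with an adjusted p of 0.00648 by limma with Benjamini-Hochberg adjustment over 11667 genes. It ranked 26 of 11667 genes by p.

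More cells held the transcript in both HFD sets. Scarb1 was at 1 TPM or more in 44 of 91 cells of HFD 1 (48.4%, 95% Clopper-Pearson interval 37.7% to 59.1%) and 29 of 92 cells of HFD 2 (31.5%, 22.2% to 42.0%). In the control sets it was held by 16 of 93 cells (17.2%, 10.2% to 26.4%) and 10 of 91 cells (11.0%, 5.40% to 19.3%). Both HFD shares were above both control shares, by 25.8 percentage points on average, against an SD between sets of 8.97. Here and below, the SD between sets is the spread between sets of the same diet, pooled over the diets. The exact two-sided permutation test of the 4 sets gave p = 0.3333, the smallest it can give with 2 sets per diet. Among holding cells the mean log2 TPM was 4.55 and 5.31 in the HFD sets and 4.15 and 4.43 in the control sets, a difference of 0.636 with an SD between sets of 0.406 (exact permutation p = 0.3333). It was 0.256 without HFD 2 and 1.016 without HFD 1, and 0.26 among cells at 10 TPM or more (exact permutation p = 0.6667). The median TPM of holding cells was 31.6 and 53.1 in the HFD sets against 28.8 and 23.9 in the control sets, and the highest cell had 102 and 220 TPM against 59.7 and 87.2 TPM.

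Cd36, the transporter of long-chain fatty acids (chr5:17781690-17888801, minus strand), averaged 0 and 0.400 TPM in the HFD sets and 0.449 and 0.601 TPM in the control sets. These means rest on 0 and 2 holding cells in the HFD sets and 1 and 5 in the control sets, and in HFD 2 a single cell held 85.1% of the summed level. The 0 of 91 cells in HFD 1 allows a share of up to 3.30%, and the difference of −2.20 percentage points in shares was smaller than the SD between sets of 2.46.

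Npc1l1, the sterol transporter of the brush border that ezetimibe blocks (chr11:6211013-6230143, minus strand), was at 17.2 and 9.94 TPM in the HFD sets and 13.0 and 12.4 TPM in the control sets. The control sets fell between the HFD sets. The log2 difference was 0.04 (95% interval −0.63 to 0.71; limma adjusted p = 0.974). The transcript was held by 37.4% and 28.3% of HFD cells and 38.7% and 27.5% of control cells, so that the sets with the same number were closer to each other than the sets of the same diet.

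**Figure D2:**
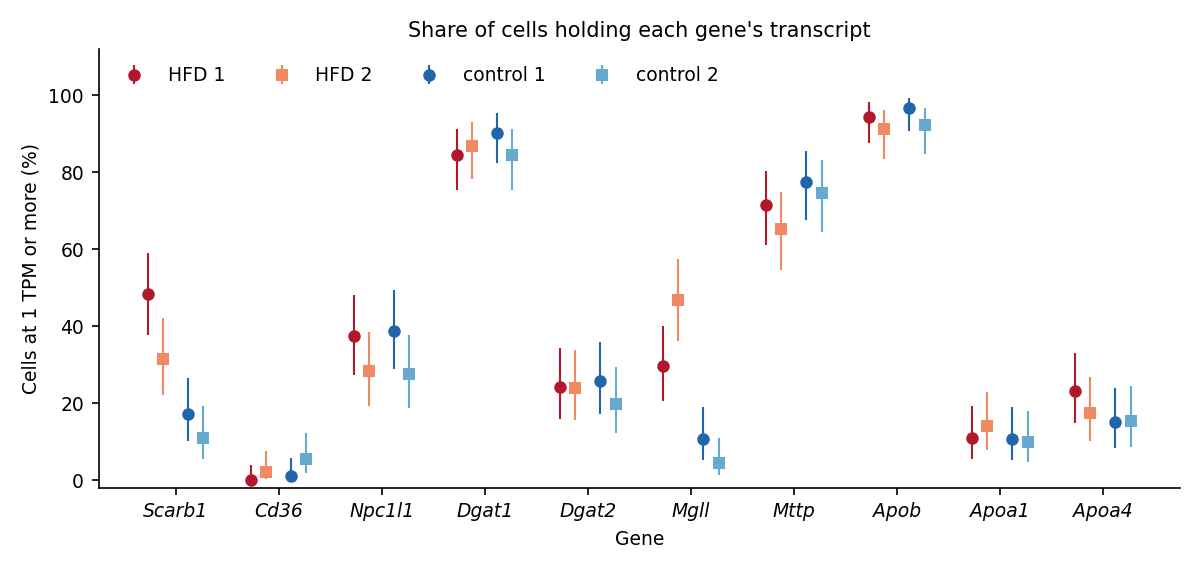
Percentage of cells at 1 TPM or more for each gene and set; lines are 95% Clopper-Pearson intervals, which cover counting error only. Scarb1 (48.4% and 31.5% in HFD sets, 17.2% and 11.0% in control sets) and Mgll (29.7% and 46.7%, against 10.8% and 4.40%) stand apart by diet, and Apob, Dgat1 and Mttp were held by most cells of every set.

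Dgat1 and Dgat2 encode the pair of acyltransferases that catalyse the last step of triglyceride synthesis. Dgat1 (chr15:76502015-76511953, minus strand) was at 66.6 and 105 TPM in the HFD sets and 79.2 and 95.4 TPM in the control sets. Dgat2 (chr7:99153658-99182719, minus strand) was at 6.72 and 7.37 TPM in the HFD sets and 7.68 and 9.21 TPM in the control sets. In every set Dgat1 was the more abundant of the pair, held by 84.6% and 87.0% of HFD cells and 90.3% and 84.6% of control cells, while Dgat2 was held by 24.2% and 23.9% of HFD cells and 25.8% and 19.8% of control cells. The Dgat1 sets overlapped between diets (log2 difference −0.05, 95% interval −0.59 to 0.49, limma adjusted p = 0.963). Both Dgat2 means on HFD were below both control means, yet the log2 difference of −0.23 had an interval from −0.94 to 0.49 (limma adjusted p = 0.856), and it was −0.11 without control 2. Cells with Dgat1 held Dgat2 about as often as all cells did, in 20 of 77 and 19 of 80 such cells in the HFD sets and 20 of 84 and 15 of 77 in the control sets. Since most cells held Dgat1, these shares had little room to differ from those of all cells.

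Mgll encodes monoacylglycerol lipase, which splits monoacylglycerol into glycerol and a fatty acid (chr6:88724412-88828360, plus strand). It was at 5.66 and 11.2 TPM in HFD 1 and HFD 2 against 2.52 and 0.402 TPM in control 1 and control 2. The diets did not overlap, and the sets within each diet were far apart. Mgll averaged 8.41 ± 3.90 TPM in HFD cells and 1.46 ± 1.498 TPM in control cells (SD, n = 2 sets each). The log2 difference was 2.02 (SE 0.47, 95% interval 1.04 to 3.0), with a limma adjusted p of 0.0535, just outside the threshold of 0.05. Without HFD 1 it was 2.45 and without control 1 it was 2.68, whereas without HFD 2 it was 1.58 and without control 2 it was 1.35. Each of these fits left a lone set in one diet. With all 4 sets, Mgll passed when cell-wise logs were averaged (1.23, limma adjusted p = 0.00356, with 0.411% of genes called higher). It also passed when each gene's highest cell was left out (2.12, limma adjusted p = 0.00775, with 0.553% called higher). Other settings took Mgll further from the threshold. The limma adjusted p was 0.745 without Rn45s in the totals, 0.668 with no filter on low genes and 0.26 with all cells. With median-ratio scaling it was 0.134, and with a pseudocount of 0.1 it was 0.0723.

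Mgll was held by 27 of 91 cells (29.7%) and 43 of 92 cells (46.7%) in the HFD sets, and by 10 of 93 cells (10.8%) and 4 of 91 cells (4.40%) in the control sets. Shares were 30.6 percentage points higher on HFD on average, with an SD between sets of 9.11 (exact permutation p = 0.3333). The mean log2 TPM of holding cells was 3.74 and 3.89 in the HFD sets and 4.05 and 2.84 in the control sets, and since control 2 had only 4 such cells it was not tested. The order of the sets differed from that of Scarb1: HFD 2 had the most Mgll cells and HFD 1 the most Scarb1 cells. Of Scarb1 cells, 17 of 44 and 13 of 29 also held Mgll in the HFD sets, against 2 of 16 and 2 of 10 in the control sets. These shares, 38.6% and 44.8% in HFD sets and 12.5% and 20% in control sets, stand beside 29.7%, 46.7%, 10.8% and 4.40% of all cells of the same sets, and rest on few cells in the control sets.

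**Figure D3:**
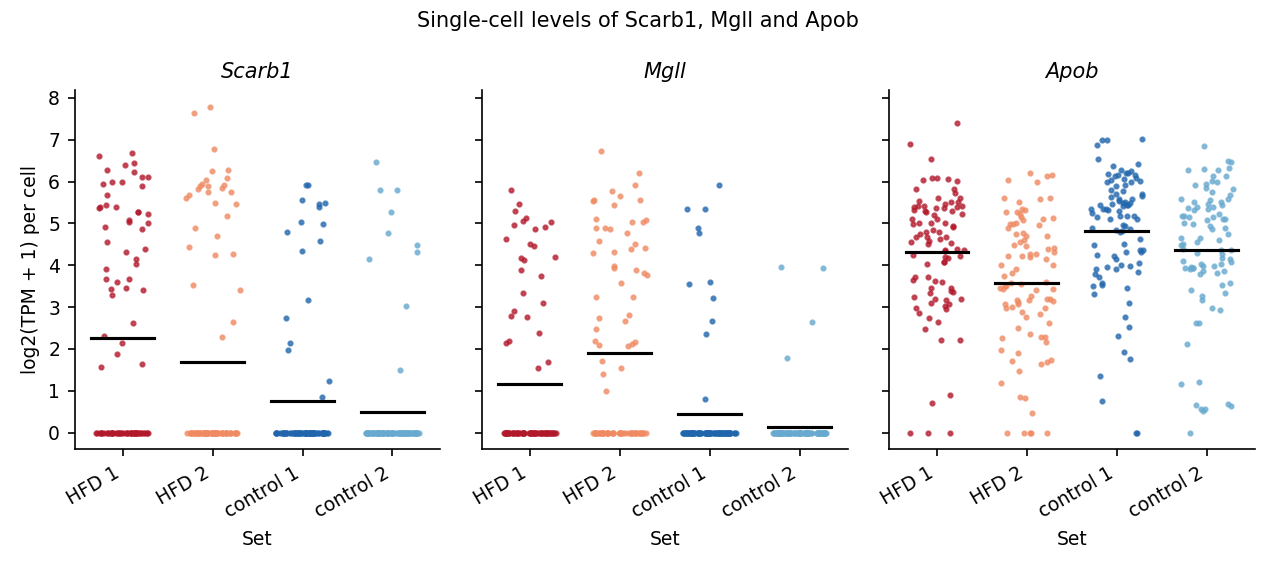
Level of Scarb1, Mgll and Apob in every cell that passed the filter, as log2(TPM + 1), by set; each point is 1 cell and the line is the mean of the cell-wise values. For Scarb1 and Mgll many cells were at 0 and the others ranged from low to high levels, with more of the others in both HFD sets. Few cells were at 0 for Apob, whose lowest line was in HFD 2.

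Mttp encodes the large subunit of microsomal triglyceride transfer protein, which loads lipid onto apolipoprotein B (chr3:138089854-138144968, minus strand). It was at 29.3 and 26.3 TPM in the HFD sets and 19.9 and 34.2 TPM in the control sets. The HFD sets fell between the control sets, and the log2 difference was 0.08 (95% interval −0.51 to 0.68; limma adjusted p = 0.942). Mttp was held by 71.4% and 65.2% of HFD cells against 77.4% and 74.7% of control cells, a difference of −7.75 percentage points with an SD between sets of 3.39 (exact permutation p = 0.3333).

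Apob, the structural protein of chylomicrons (chr12:7977648-8016835, plus strand), was at 28.6 and 18.2 TPM in the HFD sets against 39.5 and 30.1 TPM in the control sets. Both HFD means were below both control means, by a small margin between HFD 1 and control 2. Apob averaged 23.4 ± 7.31 TPM in HFD cells and 34.8 ± 6.63 TPM in control cells (SD, n = 2 sets each). The log2 difference of −0.57 (SE 0.28, 95% interval −1.16 to 0.01) did not pass the test (limma adjusted p = 0.463). It was −0.88 without HFD 1, −0.26 without HFD 2 and −0.38 without control 1, and −1.14 without the cells that had 3 or more enterocyte markers at 10 TPM or more. Nearly every cell held the transcript, 94.5% and 91.3% of HFD cells and 96.8% and 92.3% of control cells. Cells with 10 TPM or more made up 73.6% and 54.3% of the HFD sets and 87.1% and 80.2% of the control sets, a difference of −19.7 percentage points with an SD between sets of 10.2 (exact permutation p = 0.3333). In holding cells the mean log2 TPM was 4.47 and 3.73 in the HFD sets and 4.91 and 4.59 in the control sets (difference −0.644, SD between sets 0.404, exact permutation p = 0.3333). Cells with Apob held Mttp about as often as all cells did. The counts were 62 of 86 and 57 of 84 such cells in the HFD sets. They were 70 of 90 and 62 of 84 in the control sets. Since nearly all cells held Apob, these shares could hardly differ from those of all cells, and co-expression could not be read from them.

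Apoa1 and Apoa4, apolipoproteins carried on chylomicrons, lie on the plus strand of chromosome 9 (chr9:46228580-46230466 and chr9:46240696-46243459), 10229 bp apart, with Apoc3 between them. Apoa1 was at 2.68 and 4.30 TPM in the HFD sets and 1.65 and 4.35 TPM in the control sets, and the sets of the diets overlapped. Few cells held it, 11.0% and 14.1% in the HFD sets and 10.8% and 9.89% in the control sets, and 1 cell with 245 TPM carried 62.0% of its summed level in control 2. Its log2 difference was 0.23 (95% interval −0.71 to 1.17; limma adjusted p = 0.895).

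Apoa4 was at 7.88 and 5.94 TPM in the HFD sets against 3.19 and 3.94 TPM in the control sets. The diets did not overlap, with a log2 difference of 0.79 (SE 0.39, 95% interval −0.01 to 1.58), which did not pass the test (limma adjusted p = 0.462). It was held by 21 of 91 and 16 of 92 cells in the HFD sets and by 14 of 93 and 14 of 91 cells in the control sets. Of the cells with its neighbour Apoa1, 3 of 10 and 2 of 13 also held Apoa4 in the HFD sets, against 2 of 10 and 2 of 9 in the control sets, while Apoa4 was held by 15.1% to 23.1% of all cells in the 4 sets.

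Of the 9 tested members, 1 was called higher on HFD and 0 were called lower by limma at an adjusted p of 0.05; over all 11667 tested genes 0.369% were called higher, 0.137% lower and 0.506% in either direction. At an unadjusted p under 0.05 there were 2 members, Scarb1 and Mgll, against 11.1% of all genes. The set means of 3 members, Scarb1, Mgll and Apoa4, lay apart with HFD higher, as did 29.5% of all tested genes, and those of Apob and Dgat2 lay apart with HFD lower, as did 12.3% of all tested genes. Log2 differences were above 0 for 6 members and below 0 for 3, with a median of 0.08 beside 0.13 for all tested genes. The genes of the path thus had no common direction. With Rn45s left out of the totals the median of all genes was −0.05, and the log2 differences of Mttp and Npc1l1 turned to −0.11 and −0.13.

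**Figure D4:**
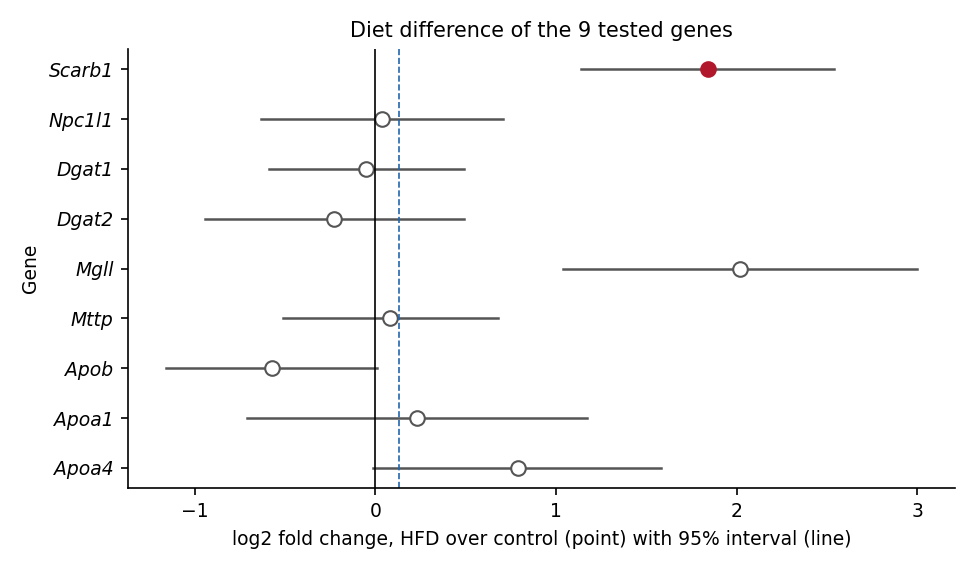
Log2 difference of HFD over control for the 9 tested genes on the log2(set mean TPM + 1) scale; lines are 95% intervals from limma, the filled point passed the adjusted p of 0.05 and the dashed line is the median of all tested genes (0.13). Scarb1 (1.84) and Mgll (2.02) have intervals wholly above the dashed line, and those of the other 7 genes include 0.

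Cells carried several of the 10 transcripts at a time. The median was 4 members per cell in every set, and the mean was 4.24 and 4.08 in the HFD sets and 3.84 and 3.45 in the control sets. Cells with 5 or more members were 41 of 91 (45.1%) and 35 of 92 (38.0%) in the HFD sets, against 26 of 93 (28.0%) and 14 of 91 (15.4%) in the control sets. Without Scarb1 and Mgll, the other 8 members came to 3.46 and 3.29 per cell in the HFD sets. They came to 3.56 and 3.30 in the control sets, so these means overlapped between the diets. The 2 genes left out had the largest fold changes of the members in these same data, so a smaller difference followed from the choice. The highest number in a cell was 7 and 8 in the HFD sets and 7 and 6 in the control sets.

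Some markers of DNA replication were also at higher levels in the HFD sets, though none passed the test. The 6 proliferation markers were Mki67, Top2a, Pcna, Mcm2, Mcm5 and Mcm6. They summed to 904 and 920 TPM in the HFD sets and 569 and 640 TPM in the control sets, all 6 being at 1 TPM or more in each set. In the limma test 0 of the 6 passed and 3 had an unadjusted p under 0.05, beside 11.1% of all tested genes. Pcna, the sliding clamp of DNA polymerase, stood at a log2 difference of 0.98 and the replicative helicase subunits Mcm2, Mcm5 and Mcm6 at 0.59, 0.72 and 0.46, whereas Mki67 and Top2a stood at −0.10 and 0.14. Their mean log2(TPM + 1) per cell was 5.43 and 5.13 in the HFD sets against 4.61 and 4.33 in the control sets. Over cells within a set, Spearman's rho of Scarb1 with this score was 0.292 and 0.220 in the HFD sets and 0.361 and 0.257 in the control sets, and with the number of genes per cell it was 0.191 and 0.106 in the HFD sets and 0.310 and 0.217 in the control sets. These are weak correlations of sparse values from shared libraries. The genes most like Scarb1 over cells, among 9131 compared by the mean of the within-set rho, were Tcf19 (0.291), the origin licensing factor Cdc6 (0.290) and the single-strand DNA binding protein Rpa1 (0.282).

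Cells with at least 3 of the 6 proliferation markers at 10 TPM or more came to 79 and 79 in the HFD sets and 78 and 66 in the control sets. Among them Scarb1 was held by 43 of 79 and 25 of 79 HFD cells and by 16 of 78 and 9 of 66 control cells. Within these cells alone the log2 difference of Scarb1 was 1.87 (SE 0.34) with a limma adjusted p of 0.0244, where 0.189% of tested genes were called higher. Mgll was held there by 27 of 79 and 37 of 79 HFD cells and 8 of 78 and 4 of 66 control cells (log2 difference 2.14, limma adjusted p = 0.0921). The remaining cells were few, and held Scarb1 in 1 of 12 and 4 of 13 cells of the HFD sets and in 0 of 15 and 1 of 25 cells of the control sets. A count of 0 of 15 allows a share of up to 20%, so no difference between the groups of cells could be read at this number. The split did not match marker levels between the diets, and the part of proliferation in these differences was not tested. The split was chosen after the genes most like Scarb1 had been seen.

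**Figure D5:**
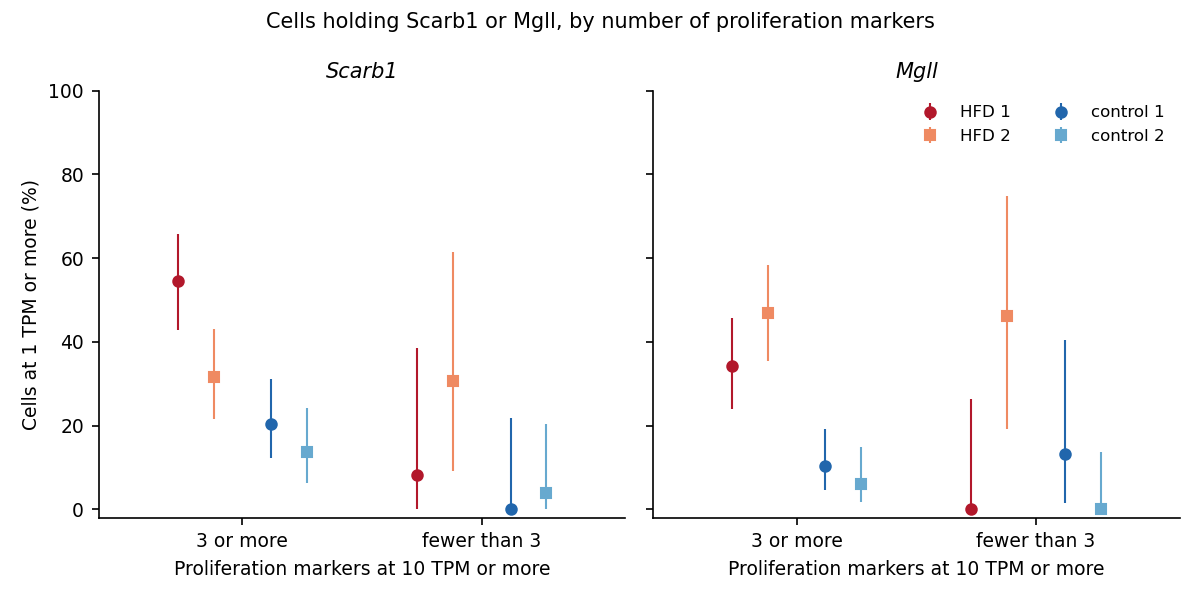
Percentage of cells at 1 TPM or more for Scarb1 and Mgll among cells with 3 or more, or fewer than 3, of the 6 proliferation markers at 10 TPM or more; lines are 95% Clopper-Pearson intervals. Among cells with 3 or more markers Scarb1 was held by 54.4% and 31.6% in HFD sets and 20.5% and 13.6% in control sets, and the intervals of the other cells are wide because each set had only 12 to 25 of them.

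Markers of secretory cells were counted in the same way. The 8 Paneth cell markers summed to 4711 and 460 TPM in the HFD sets and 65.3 and 32.3 TPM in the control sets, and 5 of 7 tested were called higher, Lyz1, Itln1, Defa17, Defa22 and Defa24. In HFD 1 a single cell carried 84.1% of the summed Lyz1, 85.3% of Itln1, 95.7% of Defa17, 86.6% of Defa22 and 95.6% of Defa24. The 9 goblet cell markers summed to 636 and 546 TPM in the HFD sets and 503 and 75.8 TPM in the control sets. Of 8 tested, 2 were called higher, Agr2 and Spdef, while 6 did not pass, among them Muc2 (log2 difference 1.73) and Clca3 (−1.25). Spdef was held by only 4 and 3 cells in the HFD sets and 2 and 1 in the control sets. A single cell carried 75.2% and 94.3% of the summed Spdef in HFD 1 and HFD 2. For Agr2 the top cell carried 35.3% and 76.7% in the HFD sets and 80.2% and 14.2% in the control sets. The 8 enteroendocrine markers summed to 12.8 and 5.21 TPM in the HFD sets and 3.82 and 1.87 TPM in the control sets, and 1 of 2 tested, Sct, was called higher, on 3 and 2 holding cells in the HFD sets and 1 and 0 in the control sets, while Neurog3 stood at −0.92. Without the cells that had 3 or more secretory markers at 10 TPM or more, which were 31 and 24 in the HFD sets and 11 and 8 in the control sets, the log2 difference of Scarb1 was 1.80 (SE 0.36), with a limma adjusted p of 0.0825, where 0.0259% of genes were called higher. The mean log2 score of the 15 enterocyte markers was 1.38 and 1.32 in the HFD sets and 1.36 and 1.32 in the control sets, overlapping between the diets. Scarb1 kept a log2 difference between 1.35 and 2.14 under 19 other settings. It passed the test in 12 of them, which include the fits that left a lone set in one diet, and not in 7. Among the 7 was leaving Rn45s out of the totals (1.73, limma adjusted p = 0.465, with 0.0412% of genes called higher). The limma adjusted p was 0.668 with no filter on low genes and 0.0705 with all cells.

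Apob, Mttp and Dgat1, the members found in most cells, were compared with the same 9131 genes. The 10 members had been left out of these, so no member could be named as most like another. Apob was most like a predicted gene, Dcdc2c (mean rho 0.227) and Mau2 (0.215). Mttp was most like Dmbt1 (0.30), a secreted mucosal scavenger protein, Akr1c19 (0.222) and Ahcy (0.219). Dgat1 was most like the fatty acid desaturase Fads2 (0.214), Noa1 (0.211) and Prpsap1 (0.204). In single sets these ran from 0.128 to 0.301 for Fads2, 0.024 to 0.42 for Noa1 and 0.005 to 0.363 for Prpsap1. Npc1l1, held by 33.0% of cells, was most like Dmbt1 (0.268), Coro2a (0.263) and the DNA polymerase subunit Pole (0.259). All these genes were named because their mean rho was the highest of 9131, a choice that favours high values, and no p was computed. The rho of Apob with the enterocyte score was 0.169 and 0.394 in the HFD sets and 0.183 and 0.118 in the control sets.

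Around the members, 88 genes of 6 companion lists were examined in the same fit, and 1 of the 73 tested was called higher and 0 lower. The one called was Fabp1, a cytosolic fatty acid binding protein of the intestine and liver, in the list of fatty acid uptake and binding. It was at 373 and 459 TPM in the HFD sets against 27.6 and 52.0 TPM in the control sets, with a log2 difference of 3.41 (SE 0.28, limma adjusted p = 3.50e-08). It was held by 73 of 91 and 74 of 92 HFD cells and by 35 of 93 and 45 of 91 control cells. Scarb1 cells held Fabp1 in 35 of 44 and 24 of 29 cases in the HFD sets and in 7 of 16 and 6 of 10 in the control sets. The other 8 tested genes of this list did not pass, including the intestinal Fabp2 (log2 difference 1.0, limma adjusted p = 0.190), and the list's median was 0.35.

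In triglyceride resynthesis 0 of 10 tested genes were called and the median log2 difference was −0.03; the phosphatidate phosphatase Lpin3 stood at −0.65 and the monoacylglycerol acyltransferase Mogat2 at 0.59. In chylomicron assembly and secretion 0 of 12 were called, with a median of 0.25. There Apoc3, which lies between Apoa1 and Apoa4, stood at 0.93 (limma adjusted p = 0.433), the lipid droplet and lipoprotein factor Cideb at −0.60 and Sar1b, the small GTPase of chylomicron export, at 0.50. In cholesterol and lipoprotein handling 0 of 15 were called, with a median of −0.14, the endocytic receptor Lrp1 at −0.92 (limma adjusted p = 0.310) and the sterol exporter subunit Abcg5 at 0.49. Lipid droplet and lipolysis genes gave 0 of 11 called and a median of 0.03, with G0s2, an inhibitor of triglyceride lipolysis, at 1.46 (limma adjusted p = 0.248) and the hormone-sensitive lipase Lipe at −0.56. Of the 16 tested regulators 0 were called and the median was 0.08; Creb3l3, a transcription factor of lipoprotein genes, stood at 0.60, and the sterol regulators Srebf2 and Srebf1 at 0.43 and 0.36. Over these 5 lists without a call, 4 genes had an unadjusted p under 0.05. Over all 6 lists there were 6 of the 73 tested, beside 11.1% of all tested genes. Without HFD 2 the log2 difference of G0s2 was 2.15, and without control 2 that of Fabp2 of the uptake list was 1.52.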

How the data were processed

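The data were TPM values per gene and cell for 375 cells of 4 sets. TPM was computed by the authors with Bowtie2 and RSEM on mm10, per the submitters' processing notes; those notes name no version and no annotation. Each cell summed to between 999999.2 and 1000000.6 TPM, so the depth is unknown. No 2 cells were identical (highest correlation 0.837). There were 2 symbols on more than 1 row, and 4327 genes were at 0 in every cell.

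TPM was averaged over the cells of a set with at least 2000 genes above 0, and the set named in the titles was the unit (n = 2 per diet). Genes whose mean over the sets reached 1 TPM were tested on log2(mean TPM + 1) by limma 3.58.1 (R 4.3.3) with a mean-variance trend, two-sided, with Benjamini-Hochberg adjustment over all tested genes and a threshold of 0.05. This log2 scale understates changes of low genes. Shares of cells at 1 TPM or more have 95% Clopper-Pearson intervals, and 0 cells the limit that 3 cells of the total set; both cover counting error only. Shares and levels in holding cells (at least 5 cells in each set) were compared by exact permutation of the 4 sets (SciPy 1.17.1). Their SD between sets is the square root of the mean of the variances within each diet (n = 2 sets per diet). Correlations are Spearman's, over the cells of each set, without a p. The limma step was tested on simulated set values.

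Named were all 10 members, of each companion list the called genes and those with the smallest p up to 4, not all of which are printed, and the 3 genes most like each member held by at least 25% of cells. The members, lists and tests were chosen with earlier results of these data known. Gene positions are from GENCODE M21 (GRCm38, the same assembly as mm10), 1-based. Other settings changed the pseudocount, the filters, the scaling, the averaging, the cells used, the trend and the sets.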

Additional observations from a re-analysis of the deposited data

How the results depend on the processing

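Scarb1 kept its direction under all 19 other settings (log2 1.35 to 2.14). It did not pass with no filter on low genes (1.84), with all cells (1.84), without Rn45s in the totals (1.73), without cells with secretory (1.80), enterocyte (2.14) or proliferation markers (1.51), or with limma without a trend (1.84), and in these 7 settings 0 members were called. Genes called over the whole table, 59 in the main fit, were 0 with no filter (1398 at an unadjusted p under 0.05), 14 with all cells, 6 without Rn45s, 9 without secretory cells, 9 without enterocyte cells, 0 without proliferation cells (648 at an unadjusted p under 0.05), 31 with proliferation cells only and 6 without a trend; the cause was not tested. The 2 proliferation settings were chosen after seeing the data. Higher against lower calls were 43 and 16 in the main fit, 25 and 17 with median-ratio scaling, 3 and 6 without secretory cells and 4 and 5 without enterocyte cells.

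Mgll passed with cell-wise logs (1.23) and with each gene's highest cell left out (2.12), giving 2 members called. Log2 differences changed sign for Mttp without Rn45s (−0.11), with median-ratio scaling (−0.05), with cell-wise logs (−0.22), without enterocyte cells (−0.67) and without proliferation cells (−0.75); for Npc1l1 without Rn45s (−0.13), with median-ratio scaling (−0.09) and without secretory cells (−0.05); for Dgat2 with cell-wise logs (0.01); and for Apoa4 without enterocyte cells (−0.15) and without proliferation cells (−0.60). None of these was a called value. The Mgll difference in shares was 20.2 percentage points at 10 TPM and 16.4 without proliferation cells.

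Leaving out 1 set at a time gave 69 to 146 genes and 1 to 2 members called, with log2 differences of 1.67 to 2.01 for Scarb1, 1.35 to 2.68 for Mgll, −0.28 to 0.74 for Apoa1, −0.29 to 0.46 for Mttp, −0.38 to 0.27 for Dgat1, −0.88 to −0.26 for Apob, −0.34 to −0.11 for Dgat2, 0.61 to 0.96 for Apoa4 and −0.32 to 0.41 for Npc1l1. The lone set of a diet was then assumed to vary like the others. The shares differed by 17.4 to 34.3 points for Scarb1 and 22.1 to 39.2 points for Mgll. With a replicate block on the set number 635 genes (548 higher, 87 lower) and 2 members were called, Mgll among them (2.02, limma adjusted p = 0.0181), and of the companion lists Fabp1, Fabp2 and, lower, Lrp1. Mgll stood below Scarb1 with cell-wise logs, without enterocyte cells, without HFD 2 and without control 2. Fabp1 did not pass with no filter or without proliferation cells. Deviations of same-numbered sets correlated at 0.233 over 11667 genes, but with only 2 pairs the numbers are not taken to pair the sets. With 2 sets per diet an exact test cannot go below p = 0.3333, and with TPM alone the depth behind a value at 0 is unknown.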
